A study of Drosophila melanogaster with 2 samples.

Results

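CG6813 occupancy was examined at 9 genes of the Drosophila heat shock response, of 13968 protein-coding genes and 18277 genes in the annotation. These were the Hsp90 gene Hsp83, the small heat shock protein genes Hsp22, Hsp23, Hsp26, Hsp27, Hsp67Ba and Hsp67Bc, the Hsp70-family gene Hsp68, and Hsf, which encodes the transcription factor of the response. The genes were listed by name, and for each one every deposited region was collected whose summit, the position of highest signal in a region, lay inside the gene or within 5 kb of it.

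The data came from chromatin immunoprecipitation and sequencing (ChIP-seq) of CG6813, a zinc finger protein, in whole Drosophila melanogaster embryos aged 0 to 24 h. Both sexes were pooled, the embryos were of a transgenic line, CG6813-GFP, in which the protein carries GFP at its C-terminus, and an antibody against GFP was used for the precipitation. There was 1 group, with 2 biological replicates that the labels number 2 and 3, and no heat-treated or otherwise contrasted group was analysed here. A tagged protein was assayed in place of the native one, and whole embryos mix all cell types and stages of that interval, so a region cannot be assigned to a tissue or a stage.

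The lists used were of 4 kinds, all on dm6. The thresholded list held 5012 peaks, the pooled list 30000 regions from both replicates, and each replicate list 30000 regions. Lists of a fixed length reach into background: the weakest pooled region had a signal of 47.22, against a median of 226.4 and a lowest value of 145.7 among the thresholded peaks. Signal is the authors' own value per region, and rank 1 is the strongest region of a list. The thresholded peaks were the 5012 strongest pooled regions, so ranks in both lists are the same. The lists hold no read counts, so the depth behind a value is unknown and no counting interval can be given.

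Heat shock proteins are chaperones that bind unfolded or misfolded proteins. Hsp90 matures client proteins such as kinases and receptors, Hsp70 proteins fold substrates in an ATP-driven cycle, and small heat shock proteins hold denaturing proteins in a form that can be refolded. In Drosophila their genes are induced within minutes by Hsf, which trimerises on heat stress and binds heat shock elements, inverted repeats of the unit NGAAN. Before induction many of these promoters hold a paused RNA polymerase II, and the GAGA factor, the product of Trl, binds repeats of GA there. Hsp83 is also transcribed without stress, and several small Hsp genes are expressed in development.

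The 9 genes differed widely. By pooled signal the strongest peak lay at the Hsp83 promoter, followed by those at the Hsp27 promoter and in an intron of Hsp83, Hsp26 and Hsp22 had weaker ones, and Hsp23, Hsp67Ba, Hsp67Bc, Hsp68 and Hsf had none at their own start sites in the thresholded list. A thresholded summit lay inside or within 5 kb of 7 of the 9 genes, all but Hsp68 and Hsf, while 44.1% of protein-coding genes had one. This count rests on neighbours: the 6 small Hsp genes are packed into 14184 bp, and only 3 summits served all of them. Counted once, for the gene of the nearest transcription start site (TSS), the 5 summits belonged to 4 genes.

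Within 500 bp of a TSS, thresholded summits lay at 4 of the 9 genes, Hsp83, Hsp22, Hsp26 and Hsp27, and at 14.8% of protein-coding genes. In the pooled list 5 genes had a summit that close, the additional gene being Hsp23, and 41.4% of protein-coding genes did. With so few genes and members listed with results of these data known, the counts describe these genes and were not tested.

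The sequences at and near the sites show which of them hold the elements that Hsf and the GAGA factor are known to bind. They are taken from the RefSeq Release 6 (dm6) assembly, read 5′ to 3′ in the direction of the gene. Capitals mark matches to the heat shock element, searched as GAANNTTC or TTCNNGAA, and to the GAGA element, searched as GAGAG or CTCTC. Each pair of patterns covers both strands, and overlapping matches were each counted. The first set holds the intergenic or intronic thresholded sites, the strong Hsp27 and Hsp83 sites with no capitals and the Hsp26 promoter with many. A match cut by the end of a printed stretch is not in capitals. This holds for a heat shock element at the start of the Hsp83 intron stretch and of the Hsp26 stretch. They are chr3L:3194139-3194379 on the plus strand, chr3L:9377428-9377642 on the minus strand and chr3L:9383796-9384036 on the plus strand.
Hsp83 intron: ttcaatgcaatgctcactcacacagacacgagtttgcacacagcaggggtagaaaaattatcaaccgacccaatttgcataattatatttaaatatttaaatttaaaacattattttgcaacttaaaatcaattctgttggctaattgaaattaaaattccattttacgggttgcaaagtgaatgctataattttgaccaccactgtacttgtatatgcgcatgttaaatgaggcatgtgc
Hsp26 promoter: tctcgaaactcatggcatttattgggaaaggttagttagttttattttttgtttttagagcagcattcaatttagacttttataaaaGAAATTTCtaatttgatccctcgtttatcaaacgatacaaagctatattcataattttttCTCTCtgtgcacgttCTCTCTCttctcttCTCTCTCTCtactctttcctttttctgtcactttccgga
Hsp27 promoter: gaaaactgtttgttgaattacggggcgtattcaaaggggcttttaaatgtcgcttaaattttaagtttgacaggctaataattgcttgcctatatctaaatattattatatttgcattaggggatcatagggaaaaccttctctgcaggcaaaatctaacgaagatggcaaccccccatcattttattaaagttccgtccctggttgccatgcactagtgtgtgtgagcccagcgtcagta

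The summits of the Hsp83 promoter and of Hsp22 lie in annotated exons of longer transcripts, and only 30 bases are shown of each, chr3L:3193137-3193166 with the heat shock element of Hsp83 and chr3L:9373653-9373682 with the GAGA matches of the Hsp22 site, both on the plus strand.
Hsp83 promoter: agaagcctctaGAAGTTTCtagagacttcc
Hsp22 upstream site: aaactttCTCTCTCccaCTCTCtaatggag

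The next set holds 200 bases before the start sites of genes that had no thresholded peak there but did have heat shock elements. They are chr3L:9381682-9381881 on the plus strand, chr3L:9372498-9372697 on the minus strand and chr3R:24057311-24057510 on the minus strand.
Hsp23 upstream: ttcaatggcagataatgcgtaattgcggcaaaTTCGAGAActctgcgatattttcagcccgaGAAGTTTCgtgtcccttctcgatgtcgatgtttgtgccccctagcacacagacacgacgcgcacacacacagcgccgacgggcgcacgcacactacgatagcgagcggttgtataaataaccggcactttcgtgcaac
Hsp67Bc upstream: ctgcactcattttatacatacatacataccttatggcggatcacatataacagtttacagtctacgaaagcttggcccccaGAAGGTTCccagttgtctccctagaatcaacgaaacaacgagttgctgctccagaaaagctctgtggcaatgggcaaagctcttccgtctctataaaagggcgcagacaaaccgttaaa
Hsp68 upstream: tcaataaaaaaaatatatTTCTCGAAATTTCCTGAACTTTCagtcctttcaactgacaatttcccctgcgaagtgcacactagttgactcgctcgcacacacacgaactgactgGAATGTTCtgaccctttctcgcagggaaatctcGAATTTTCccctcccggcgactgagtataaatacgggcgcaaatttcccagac

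Hsp83 (FBgn0001233) encodes the cytosolic Hsp90 and lies on 3L from 3192969 to 3197059 on the plus strand, with annotated start sites at 3192969 and 3193216. Its promoter peak, from 3192962 to 3193277, had a pooled signal of 1800 and rank 26. The signal was 1210 at rank 33 in replicate 2 and 607.6 at rank 12 in replicate 3. Both replicates thus placed it among their 33 strongest regions. The pooled summit, 3193113, lay 103 bp upstream of the downstream start site and 144 bp after the upstream one, inside the 5′ untranslated region of 1 transcript. The replicate summits were 11 bp apart.

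The intron of Hsp83 held the other peak of that gene, from 3194180 to 3194370 with its summit at 3194259, 1043 bp after the downstream start site and in an intron of both transcripts. Its pooled signal was 713.2 at rank 302. It reached 535.7 at rank 260 in replicate 2 and 182.2 at rank 450 in replicate 3, with summits 4 bp apart. In every list it was below the promoter peak of the same gene. Having at least 2 thresholded summits between 500 bp before the gene and its end was found for 1 of the 9 genes, Hsp83, and for 6.49% of protein-coding genes.

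Beyond these, a weak pooled region of signal 52.34 at rank 25290 lay 3 bp before the start of CG32276, with 22.74 at rank 25982 in replicate 3 and no counterpart near Hsp83 in replicate 2. The next thresholded peaks stood 13280 bp before the gene, in an intron of Girdin, and 12056 bp after it, so the pair at Hsp83 had no thresholded neighbour within 10 kb.

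The small Hsp cluster occupies 3L from 9371511 to 9385694. In order of position it holds Hsp67Bc, Hsp22, Hsp26, Hsp67Ba, Hsp23 and Hsp27. It also holds CG4456, which the annotation's synonyms give as Hsp67Bb, CG4461, another small Hsp gene, and the antisense RNA gene asRNA:CR43481. With 5 kb on each side, a span of 24184 bp, the cluster held 3 thresholded peaks. Of 5521 consecutive windows of that length along the chromosome arms, 12.2% held as many or more. The next thresholded peaks were 22148 bp from the cluster on one side, near PGRP-LF, and 11645 bp on the other, in an intron of CG4080.

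**Figure D1:**
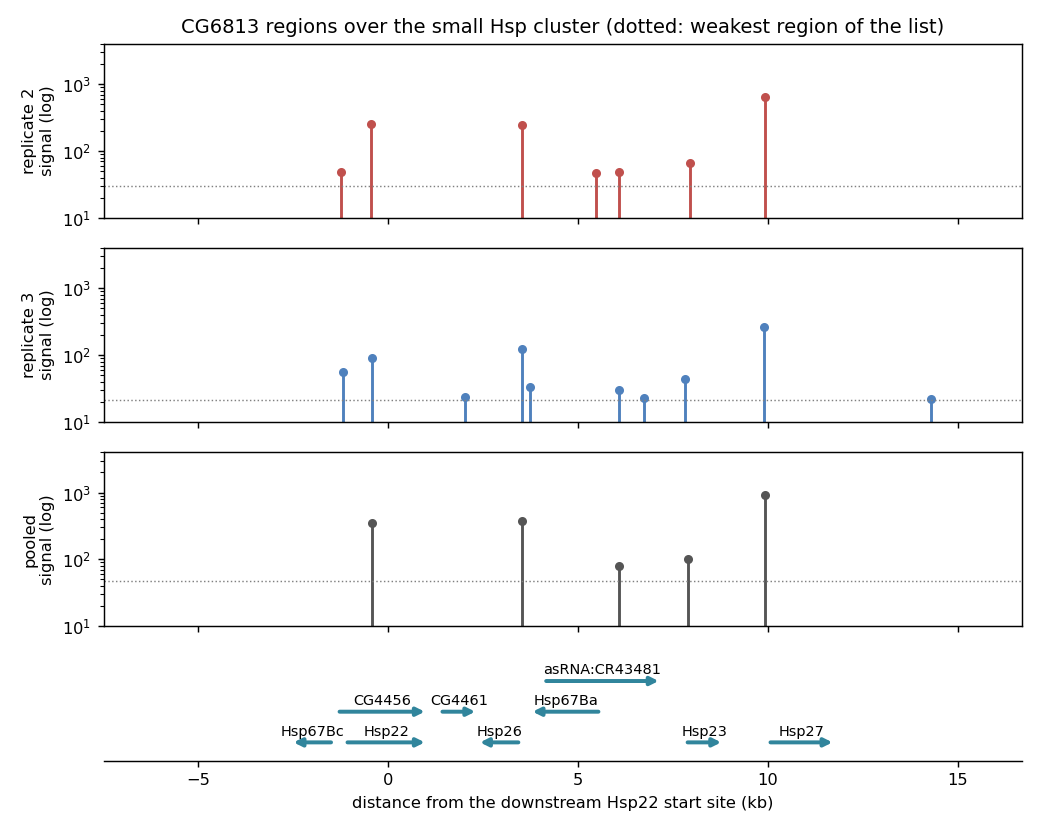
Regions of the replicate 2, replicate 3 and pooled lists over the small Hsp cluster with 5 kb on each side; the x axis gives the distance from the downstream Hsp22 start site in kb, the y axis the deposited signal on a log scale, each stem is 1 region at its summit, the dotted line is the weakest region of the list and arrows are genes. The tallest stem in each list stands just before Hsp27 (647.5, 262.0 and 903.3), and the pooled list has 5 regions, against 7 in replicate 2 and 10 in replicate 3.

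Hsp27 (FBgn0001226), a small heat shock protein gene also expressed in development, lies from 9384063 to 9385694 on the plus strand and had the strongest peak of the cluster. The peak ran from 9383772 to 9384022, with its summit at 9383916, 147 bp upstream of the TSS and between genes. Its pooled signal was 903.3 at rank 172. The signal was 647.5 at rank 164 in replicate 2 and 262.0 at rank 196 in replicate 3, and the summits were 15 bp apart. The ranks of the replicates were therefore close, and in both lists this peak was stronger than the intron peak of Hsp83 and weaker than the promoter peak of Hsp83.

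Hsp26 (FBgn0001225), a small Hsp gene from 9376418 to 9377427 on the minus strand, had a peak from 9377312 to 9377731. Its summit, 9377522, lay between genes, 95 bp upstream of the start site at 9377427 and 147 bp upstream of the one at 9377375. The pooled signal was 372.5 at rank 1101. It was 244.5 at rank 1247 in replicate 2 and 123.5 at rank 1015 in replicate 3, and the replicate summits were 4 bp apart. Replicate 3 alone listed a further region 298 bp upstream, with a signal of 33.74 at rank 12238.

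Hsp22 (FBgn0001223), whose product is a mitochondrial small heat shock protein, lies from 9372931 to 9374964 on the plus strand, with start sites at 9372931 and 9373997. The peak from 9373375 to 9373794 had its summit at 9373585, 412 bp upstream of the downstream start site and 654 bp after the upstream one. That position is in the 3′ untranslated region of CG4456 and in the 5′ untranslated region of the longer Hsp22 transcript. The pooled signal was 345.8 at rank 1267. It was 256.8 at rank 1146 in replicate 2 and 89.77 at rank 1902 in replicate 3, with summits 10 bp apart. Hsp22 was slightly above Hsp26 in replicate 2 and below it in replicate 3, so their order did not hold across replicates.

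Hsp23 (FBgn0001224), a cytosolic small heat shock protein gene from 9381882 to 9382765 on the plus strand, had a pooled region with its summit 2 bp after the TSS, below the threshold. Its signal was 101.1 at rank 8641. The signal was 66.50 at rank 8650 in replicate 2, 60 bp after the TSS, and 43.99 at rank 7407 in replicate 3, 76 bp before it. The replicate summits were 136 bp apart, a wider gap than at any of the 5 thresholded sites, where it was 4 to 15 bp. The weakest thresholded peak had a signal of 145.7.

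Hsp67Ba (FBgn0001227), a small Hsp gene from 9377802 to 9379534 on the minus strand, had no region at its start site in the pooled list or in replicate 3. Replicate 2 listed one 60 bp after the TSS, with a signal of 46.85 at rank 14751. A region 533 bp upstream, in a noncoding exon of asRNA:CR43481, appeared in all 3 long lists. It reached 48.39 at rank 14014 in replicate 2, 29.64 at rank 15773 in replicate 3 and 79.47 at rank 12669 in the pooled list. Its replicate summits were 2 bp apart although its rank was near the middle of each list.

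Hsp67Bc (FBgn0001229), a small Hsp gene from 9371511 to 9372497 on the minus strand, shares its upstream side with CG4456. Near the start of CG4456, replicate 2 had a region of signal 48.41 at rank 14003, 260 bp upstream of Hsp67Bc, and replicate 3 one of 56.50 at rank 4628, 313 bp upstream. These summits were 53 bp apart, yet the pooled list had no region there. Of the 5012 strongest regions of replicate 3, 4679 had a replicate 2 region within 200 bp, and 11 of these (0.235%) had no pooled region within 200 bp. Among the regions near the 9 genes with summits within 200 bp in both replicates, it was the only one with a higher signal in replicate 3.

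Hsp68 (FBgn0001230), a heat-inducible Hsp70-family gene, lies on 3R from 24055080 to 24057310 on the minus strand and had no region inside it or at its promoter in any list. The nearest thresholded summit was 16710 bp from its TSS, in an intron of eIF4EHP, with a signal of 146.2 at rank 4984. The single pooled region within 5 kb had a signal of 70.82 at rank 15227 and lay 33 bp after the start of the autophagy gene Atg6, 4331 bp from Hsp68. Replicate 3 had regions of 32.46 at rank 13189 and 53.09 at rank 5214 at the neighbouring gene Pisd, and replicate 2 had none within 5 kb. Each of the regions near Hsp68 therefore lay closest to the start of another gene.

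Hsf (FBgn0001222) lies on 2R from 18130303 to 18134634 on the minus strand. The thresholded, pooled and replicate 2 lists had no region inside it or within 5 kb, and its nearest thresholded summit was 7241 bp away, in an intron of pAbp, with a signal of 271.3 at rank 1900. Replicate 3 listed 4 regions, with signals of 24.31 to 42.66. The strongest of them lay in a coding exon of Hsf, 660 bp after the TSS, at rank 7872, and the other 3 lay in coding exons of Spn55B and Pcl. None of these had a counterpart within 5 kb of Hsf in replicate 2.

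**Figure D2:**
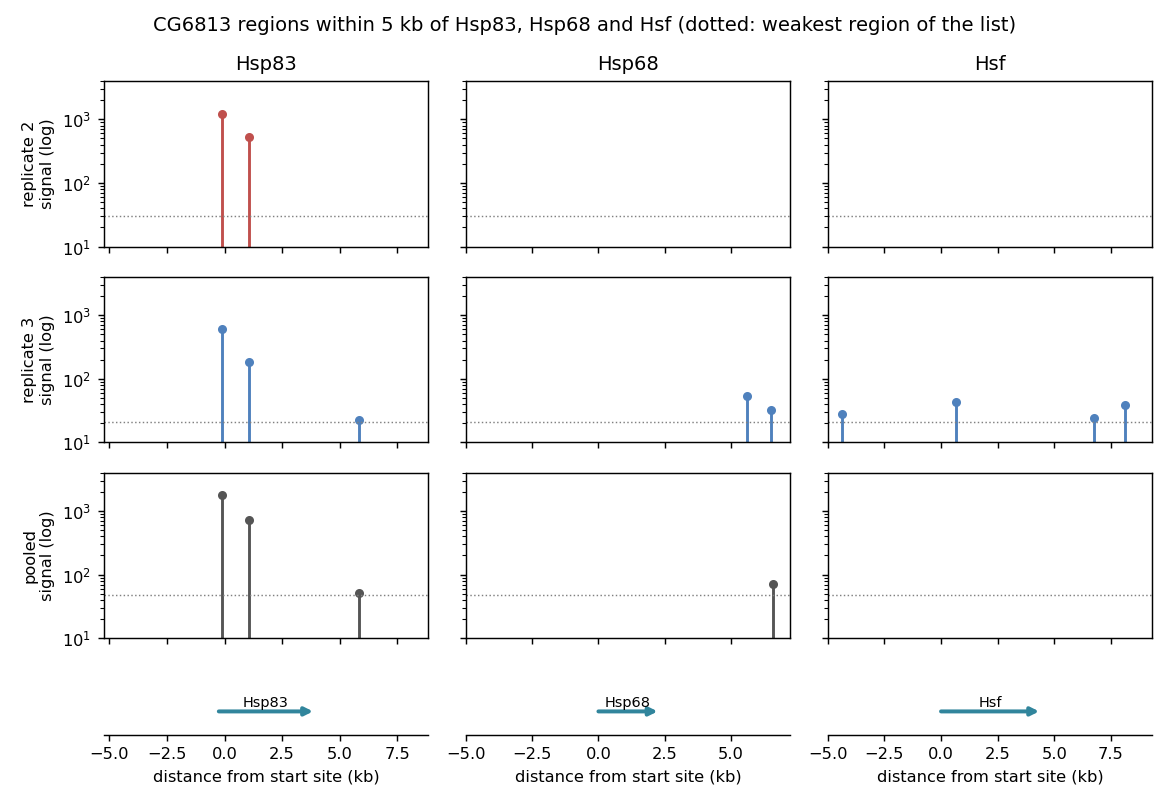
Regions within 5 kb of Hsp83, Hsp68 and Hsf in the replicate 2, replicate 3 and pooled lists; the x axis gives the distance in kb from the start site (for Hsp83 the downstream one) in the direction of the gene, the y axis the deposited signal on a log scale, each stem is 1 region at its summit and the dotted line is the weakest region of the list. Hsp83 has its 2 strong regions in all 3 lists, with pooled signals of 1800 and 713.2, while Hsp68 has 1 pooled region, of 70.82, and Hsf has none.

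The loci differed in the same direction when whole spans were compared. Over its span of 24184 bp the small Hsp cluster held 5 pooled regions with a summed signal of 1802. Hsp83, with 5 kb on each side, held 3 over 14091 bp, with a summed signal of 2565. Hsp68 held 1 over 12231 bp, with a signal of 70.82. Hsp83 thus carried more summed signal than the whole cluster in a shorter span, and the sum at Hsp68 was below the weakest single thresholded peak. Per replicate, the cluster summed to 1359 in replicate 2 and 707.5 in replicate 3, Hsp83 to 1746 and 812.5 in the same order, and Hsp68 to 85.55 in replicate 3 with no region in replicate 2. In both replicates the order was Hsp83, then the cluster, then Hsp68. These sums grow with the number of regions called in a list, and they were not tested.

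Some region lay within 5 kb of 8 of the 9 genes in the pooled list (86.1% of protein-coding genes), 7 in replicate 2 (85.2%) and all 9 in replicate 3 (89.2%). In lists of this length most genes have a region nearby, and the genes without one were Hsf in the pooled list and Hsp68 and Hsf in replicate 2.

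Set against the 2063 protein-coding genes with a thresholded promoter summit, Hsp83 ranked 16 by signal (0.776%), Hsp27 124 (6.01%), Hsp26 635 (30.8%) and Hsp22 718 (34.8%). The pooled signal of the Hsp83 promoter was 7.95 times the median of the thresholded peaks. The ratio was 3.99 for the Hsp27 promoter, 3.15 for the Hsp83 intron, 1.65 for Hsp26 and 1.53 for Hsp22. All 5 sites were above the median peak. Their widths split in the same way, 316, 191 and 251 bp at the Hsp83 promoter, the Hsp83 intron and Hsp27, and 420 bp at Hsp26 and Hsp22. The width of 420 bp was that of 81.3% of thresholded peaks.

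All 5 sites were found in both replicates, as were 98.3% of thresholded peaks. Since the thresholded peaks are those of highest pooled signal, presence in both is no separate evidence. The replicate summits were 4 to 15 bp apart at the 5 sites, where the median gap over thresholded peaks was 20.0 bp and the 90th percentile 85.0 bp. Signal in replicate 2 over that in replicate 3 was 1.99 at the Hsp83 promoter, 2.94 in the Hsp83 intron, 2.86 at Hsp22, 1.98 at Hsp26 and 2.47 at Hsp27. The median over all thresholded peaks was 2.19, with an interquartile range of 1.72 to 2.78, so 3 sites were inside that range and the Hsp83 intron and Hsp22 above it. The order of Hsp26 and Hsp22 changed between the replicates, with 244.5 and 256.8 in replicate 2 and 123.5 and 89.77 in replicate 3.

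**Figure D3:**
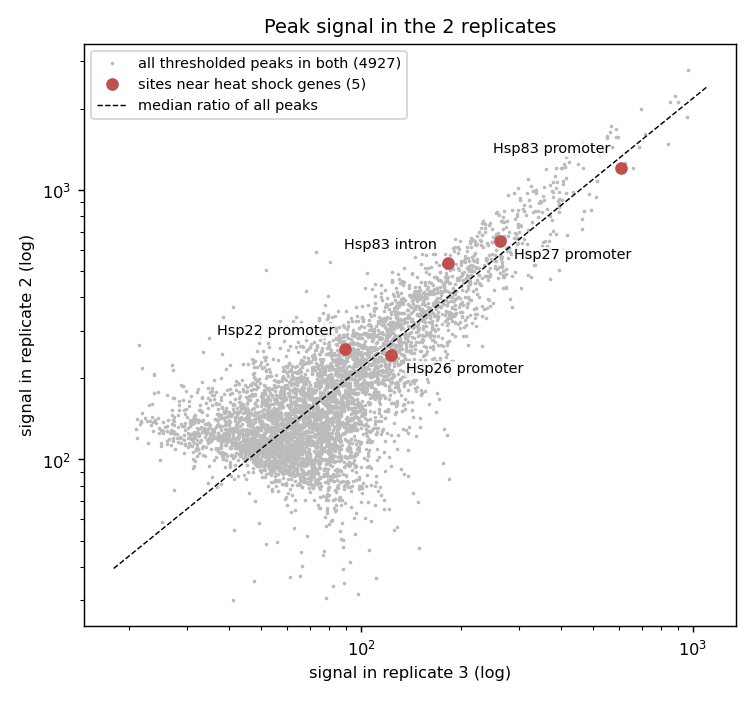
Deposited signal in replicate 2 (y axis, log scale) against replicate 3 (x axis, log scale) for the 4927 thresholded peaks found in both, grey, and the 5 sites near heat shock genes, red; the dashed line is the median ratio of 2.19. The Hsp83 promoter lies at the far end of the cloud (607.6 in replicate 3), Hsp27 and the Hsp83 intron in its upper part, and Hsp22 and Hsp26 near each other on opposite sides of the line.

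Peaks and heat shock elements coincided at some of these genes and not at others. Within 100 bp of the summit, 2 of the 5 sites held one, the Hsp83 promoter and Hsp26, and 9.30% of all thresholded summits did. The nearest element was 35 bp from the summit at the Hsp83 promoter, 26 bp at Hsp26, 118 bp in the Hsp83 intron, 184 bp at Hsp27 and 224 bp at Hsp22. Among start sites, 7 of the 12 annotated for the 9 genes had an element between 250 bp before and 50 bp after the start, and 15.8% of 19253 start sites of protein-coding genes did. These 7 include both starts of Hsp26, whose overlapping windows share elements. The most, 6 with overlapping matches, stood before Hsp68, where 4 of them form the unbroken run of capitals from 182 to 160 bp before the start in the sequence above, and no list had a region there. Hsp27 had a peak at rank 172 and no element in that window.

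GAGA matches stood within 100 bp of the summit at 2 of the 5 sites, 6 at Hsp26 and 3 at Hsp22, and 27.7% of thresholded summits had at least 1. At Hsp26 they began 27 bp and ended 64 bp from the summit, on its downstream side, as the runs of CTCTC in the printed promoter show. In the start site windows 5 of the 12 had a match, and 33.1% of all start sites. These 5 were both starts of Hsp22, both of Hsp26 and that of Hsp23, and the 2 Hsp26 windows hold the same 6 matches. The strongest sites, at the Hsp83 promoter, in its intron and at Hsp27, had none within 100 bp of the summit. Within 150 bp, GAGA stood at 3 of the 5 sites, so the lack at these strongest sites depends on the window.

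The TATA sequence, searched as TATAAA on the strand of the gene, stood in the windows of 10 of the 12 start sites, all but those of Hsp67Ba and Hsf, and in 29.4% of all. Hsp83, Hsp22 and Hsp26 count with 2 starts each, and the Hsp26 windows hold the same matches. A match began 28 bp before the downstream start of Hsp22, the starts of Hsp27, Hsp67Bc and Hsp68 and the start of Hsp26 at 9377375, 27 bp before it at Hsp23 and 30 bp before it at the downstream start of Hsp83. Measured from these TATA-bearing starts, the thresholded summits were 103 bp upstream at Hsp83, 147 bp at Hsp26, 147 bp at Hsp27 and 412 bp at Hsp22. All 4 promoter summits thus lay upstream of these TATA matches next to the starts. Other matches lay farther out, at offsets of -187 bp from the Hsp26 start at 9377375, -148 bp from the upstream start of Hsp83 and -249 bp from the upstream start of Hsp22, and each of these lies upstream of the summit of its gene. Within 100 bp of a summit TATA was found at 2 of the 5 sites and at 19.3% of thresholded summits. At the Hsp83 promoter it was the match next to the downstream start, and at Hsp26 it was the farther one, on the upstream side of the summit.

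**Figure D4:**
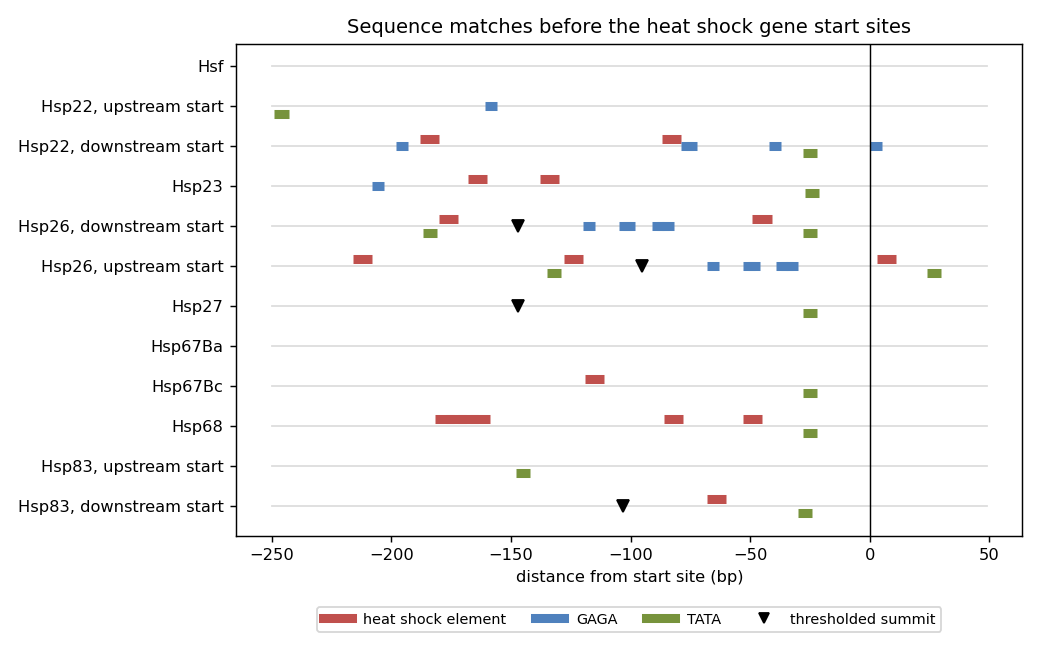
Matches to the heat shock element, GAGA and TATA from 250 bp before to 50 bp after each annotated start site of the 9 genes (x axis, distance from the start in bp); bars are matches and triangles thresholded summits inside the window. Hsp68 has 6 heat shock elements and no summit. Hsp27 has a summit 147 bp before its start and no heat shock element inside this window, the nearest being 184 bp from its summit.

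GC content within 100 bp of the summit was 47.3% at the Hsp83 promoter, 39.3% at Hsp27, 32.3% at Hsp26, 31.8% at Hsp22 and 31.3% in the Hsp83 intron. The median over thresholded summits was 37.3%, with the 5th percentile at 26.4% and the 95th at 52.2%, so no site was outside that range. Whether reads could be placed was examined by counting stretches of 30 bases that occur once in the genome. All of those within 100 bp of each of the 5 summits did. Over each gene with 500 bp on both sides the share was 99.9 to 100% except at Hsp27, where it was 53.6%, its repeated bases starting at 9384931, past the peak. Hsp68, with 99.9%, was as unique as Hsp83.

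Related chaperone genes and regulators of heat shock promoters were taken from lists of 63 symbols, of which 62 were in the annotation. Of these, 11 (17.7%) had a thresholded summit within 500 bp of a TSS, near the 14.8% of all protein-coding genes. The 62 include lncRNA:Hsromega, which is not protein-coding. The counts for single lists, given here and below, stand beside the same 14.8%, rest on few genes and were not tested. The heat-inducible Hsp70 genes, relatives of Hsp68 in sequence, had 0 of 6, and no list had a region within 500 bp of any of the 6. Only 1.42 to 23% of their stretches of 30 bases occur once in the genome, and the treatment of reads with several matches was not given in the sources used here, so the lack of regions there cannot be read as a lack of binding. The other small Hsp and alpha-crystallin genes had 0 of 6 as well.

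Among the Hsp70 cognate and Hsp110 genes 2 of 6 had a promoter peak. Hsc70-5, the mitochondrial Hsp70, had a pooled signal of 362.5 (250.7 in replicate 2 and 100.1 in replicate 3), 20 bp upstream of its start. Hsc70-3, the Hsp70 of the endoplasmic reticulum, had 317.1 (185.4 in replicate 2 and 121.6 in replicate 3), 488 bp upstream. Both were close to Hsp26 and Hsp22 in signal and well below Hsp83. Among other Hsp90 family members and cochaperones 1 of 9 had a peak, the BAG-domain cochaperone gene stv, with 210.0 (166.6 in replicate 2 and 35.23 in replicate 3). Neither Gp93 nor Trap1, the Hsp90 genes of the endoplasmic reticulum and the mitochondrion, had a thresholded promoter summit.

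J proteins, which pass substrates to Hsp70, had 2 of 9. The peak at mrj reached 510.3 (399.2 in replicate 2 and 114.7 in replicate 3), and that at DnaJ-H, of 331.8, lay nearest the start of Sirt1. Chaperonins had 1 of 12, CCT8 with 186.4, nearest the start of CG30349. Where a summit lay nearest the start of another gene, it cannot be assigned to either one.

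Regulators of heat shock promoters, listed together with the noncoding RNA gene lncRNA:Hsromega, had 5 of 14 (35.7%), beside 14.8% of protein-coding genes. Nelf-E, a subunit of the factor that holds paused polymerase, had 1074 at rank 110, but the summit lay nearest the start of RpL14, a ribosomal protein gene. The stress-induced noncoding RNA gene lncRNA:Hsromega had 503.2 (389.7 in replicate 2 and 115.4 in replicate 3), 238 bp after its start, and Trl 424.8 (338.2 in replicate 2 and 79.36 in replicate 3), 108 bp after its start. TH1, another subunit of the pausing factor, had 232.9 (160.4 in replicate 2 and 23.52 in replicate 3), nearest the start of mei-41. The weakest region of the replicate 3 list had 21.02. The remaining gene of the 5 also had its summit nearest the start of another gene. Such summits cannot be assigned to the regulators. Of the 11 related genes, Nelf-E alone had a higher promoter signal than Hsp27, and none had a higher one than Hsp83.

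**Figure D5:**
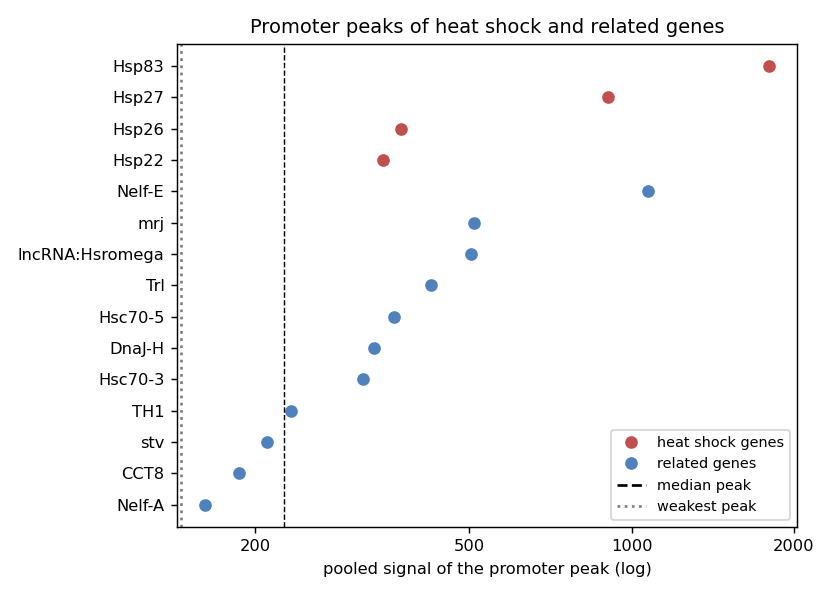
Pooled signal (x axis, log scale) of the promoter peak of the 4 heat shock genes with a thresholded peak, red, and of the 11 related genes with one, blue; the dashed line is the median and the dotted line the weakest of the 5012 thresholded peaks. Hsp83 (1800) is farthest right, and the Nelf-E point (1074) is the peak shared with RpL14.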

How the data were processed

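The authors deposited lists of regions on dm6 and dm3 for each replicate, for both replicates pooled and as a thresholded set. Per the labels' file listing, the long lists hold peaks and background meant for irreproducible discovery rate (IDR) analysis, the thresholded list is the optimal set from it, and a control was used in calling. The software for alignment and calling and the IDR threshold were not given in the sources used here. A deposited signal and a deposited −log10 q-value accompany every region. The normalization behind the signal was not given in the sources used here. Ranks are by signal alone. The depth of the libraries cannot be had from the lists. Control libraries, replicate 1 and the dm3 lists were not used here.

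Summits were read as the start plus the summit offset, and coordinates are 1-based. Genes came from the Ensembl annotation BDGP6.54 (release 115) and sequence from RefSeq. Arm names and ends of the lists were checked against the assembly. Near meant inside a gene or within 5 kb, promoter within 500 bp of any TSS, and regions of different lists matched when summits lay within 200 bp. At the main settings, counts over members were set beside the same count over all protein-coding genes. No such share is given for the alternatives, whose counts show only how a result moved. No test was run, since 1 group of 2 replicates and peak lists hold no contrast. The spread between the replicates is that of 2 embryo samples. The members, the related lists and the motifs were chosen with earlier results of these data known. The text names every member, the gene nearest each summit near a member, and up to 4 genes per related list with a thresholded promoter summit, by highest signal. The count of bases that occur once in the genome, the distances between summits of weak regions and the count of regions missing from the pooled list were added after values had been seen. Alternatives were other distances, the most 5′ TSS only, stronger peaks, each replicate alone, other matching distances and other motif windows. The scripts (Python 3.11.15, numpy 2.4.6, pandas 2.3.3, matplotlib 3.10.9) were tested on simulated data.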

Additional observations from a re-analysis of the deposited data

How the results depend on the processing

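Of 52 alternatives, 43 left their result within the limits set for it, 1.5 times for a count. With each summit counted once, 4 members in place of 7 had a thresholded summit within 5 kb. The number was 5 within 1 kb and 8 within 10 kb, and the 44.1% of protein-coding genes holds for 5 kb only. With promoters of 200 bp in place of 500 bp, 3 members in place of 4 and 7 related genes in place of 11 had a thresholded promoter summit. The 14.8% of protein-coding genes holds for 500 bp only. Using only the most 5′ TSS of each gene also left 3 members. The member lost in both cases was Hsp22. With windows of 50 bp on each side of the summit in place of 100 bp, 1 site in place of 2 held GAGA and 1 in place of 2 held TATA. Heat shock elements stood at 2 sites in both. With 150 bp on each side, heat shock elements, GAGA and TATA each stood at 3 sites. The additional GAGA site was then at Hsp83 or Hsp27. The shares of all thresholded summits given above hold for 100 bp only. Leaving out either replicate kept 7 members within 5 kb, with 4 to 5 promoters, and gave 3 to 4 summits in the cluster and 10 to 15 related promoters. The shares of 44.1%, 14.8% and 12.2% hold for the thresholded list and not for a single replicate. The additional promoter, without replicate 2, was that of Hsp67Bc. Its summit lay 313 bp upstream of Hsp67Bc but nearest the start of CG4456, so it cannot be assigned to either one. The other moved values were ranks near single genes, the largest for Hsp68, whose strongest region within 5 kb stood at 50.8% of the pooled list and 17.4% of the replicate 3 list. The median replicate ratio at the 5 sites was 1.13 times that of all thresholded peaks. It was 1.03 times when each site was set beside the median of its own 100 peaks nearest in rank. By site, the ratio was 1.99 against 2.66 at the Hsp83 promoter and 1.98 against 2.38 at Hsp26. It was 2.94 against 2.37 in the Hsp83 intron, 2.86 against 2.31 at Hsp22 and 2.47 against 2.40 at Hsp27. The causes were not tested. No paired analysis was possible because there is 1 group. Depth is unknown, so whether a weak region was missed for lack of reads was not tested.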
